A study of Mus musculus with 2 samples.

Results

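The cell division cycle was followed through 41 of the 32285 genes in the deposited tables, chosen by symbol and divided by the stage at which their products act. The 15 replication genes were Mcm2 to Mcm7, Pcna, Rrm1, Rrm2, Tyms, Gins2, Cdc6, Cdt1, Ccne1 and Ccne2. The 23 mitosis genes were Ccna2, Ccnb1, Ccnb2, Cdk1, Mki67, Top2a, Nusap1, Prc1, Cenpf, Cenpe, Bub1, Bub1b, Aurka, Aurkb, Plk1, Kif11, Kif20a, Kif23, Tpx2, Ube2c, Birc5, Cdc20 and Hmmr. The 3 D cyclins were Ccnd1, Ccnd2 and Ccnd3. All 41 symbols were found, each in 1 row. Expression was measured with Visium, which captures RNA from a tissue section on an array of barcoded spots that each cover several cells, and counts each captured molecule once through a unique molecular identifier (UMI). There was 1 transverse heart section from a PD1 Het mouse (PD1 +/-) and 1 from a PD1 KO mouse (PD1 -/-). Both animals were C57BL/6, had the left anterior descending artery ligated on postnatal day 2 to cause a myocardial infarction, and were collected 7 days later. No section without infarction and no PD1 +/+ section was analysed here.

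A cell that enters the cycle first makes D cyclins, which with their kinases release the E2F transcription factors. E2F then raises the genes of DNA replication, among them the MCM helicase, the clamp PCNA and the enzymes that supply nucleotides. Genes of mitosis are raised later, in G2, by the complex of MuvB with B-Myb and FoxM1. Cardiomyocytes of newborn mice still divide and leave the cycle soon after birth, often after a last round in which the nucleus divides and the cell does not, while fibroblasts, endothelial cells and macrophages of an infarct continue to divide. PD-1 is an inhibitory receptor of activated T cells.

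The PD1 Het section held 811 spots with at least 500 UMIs, 12814494 UMIs in all, and the PD1 KO section 851 spots with 23520499 UMIs. The median spot had 15475 and 27134 UMIs, and mitochondrial genes took 25.6% and 15.9% of all UMIs. Pdcd1, which encodes PD-1, had 0 UMIs in both sections, which allows up to 0.234 and 0.128 CPM, counts scaled to 1000000 UMIs, so it says nothing about the genotype labels. The female-specific RNA Xist had 541 and 1 UMIs, and 4 Y-linked genes had 1 and 2900 together, so genotype and sex cannot be told apart. Heart markers matched the tissue label: the 12 ventricular cardiomyocyte markers made up 80554 and 79934 CPM, and none of the 74 markers of 9 cell types was at 0. The 6 T cell markers were sparse, with 3.67 and 4.68 CPM together. With 1 section per genotype, no test was possible and no p-value is given. Values describe these 2 libraries, and every interval is an exact 95% interval that covers counting error only. In a spot, fewer cells of a kind and less RNA per cell cannot be told apart.

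By summed CPM, mitosis genes differed most between the sections, replication genes less and D cyclins least. Mitosis genes together made up 328 CPM (318 to 338) of the PD1 Het section, against 621 CPM (611 to 631) of PD1 KO, a 1.89-fold difference. Replication genes made up 358 CPM (348 to 369) and 507 CPM (498 to 516), or 1.42-fold. D cyclins made up 285 CPM (276 to 295) and 321 CPM (314 to 329), or 1.13-fold. A higher CPM in the PD1 KO section was common to most genes: 85.4% of the 11455 genes that reached 100 UMIs over both sections showed it, and the log2 CPM ratio of the median gene was 0.33. The log2 ratio of a gene, PD1 KO over PD1 Het, is therefore given after subtracting that of the median gene, except where it is named a CPM ratio. On that scale the summed mitosis genes lay at 0.59 (0.54 to 0.64), the summed replication genes at 0.17 (0.12 to 0.22) and the summed D cyclins at -0.16 (-0.22 to -0.10), below the median gene although their CPM was higher. The summed replication genes and D cyclins thus lay about equally far from the median gene, on opposite sides of it. By edgeR's TMM factors and by median-of-ratios size factors the summed D cyclins were lower in the PD1 KO section, at a log2 ratio of -0.14 for both.

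All 41 genes passed this minimum. Of the 23 mitosis genes, 12 exceeded the median gene by 1.5-fold or more and 0 fell short of it by as much, where 5.5% of all genes lay as far above and 3.3% as far below. Of the 15 replication genes 1 lay as far above and 0 below, and of the 3 D cyclins none in either direction. The list medians were 0.59, 0.14 and -0.29, with ranges of 0.00 to 1.24, -0.12 to 0.59 and -0.31 to -0.03. Among the 9921 genes with totals within the range of the 41, 5.18% lay 1.5-fold above and 2.71% below. Mitosis genes lay above the median gene in 22 of 23 cases, replication genes in 12 of 15 and D cyclins in 0 of 3, where 50% of all genes do so by construction.

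**Figure D1:**
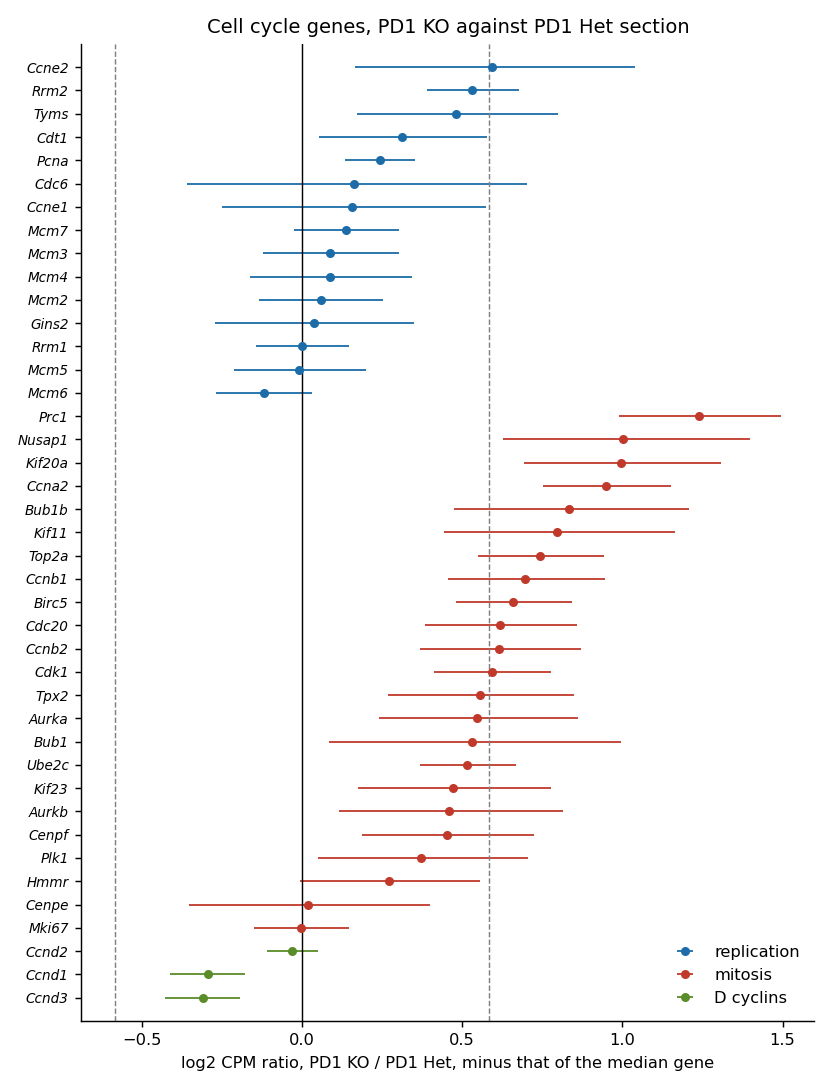
Log2 ratio of CPM, PD1 KO over PD1 Het section, minus that of the median gene, for each of the 41 genes, with exact 95% counting intervals; dashed lines mark 1.5-fold. Mitosis genes reach from Mki67 at 0.00 to Prc1 at 1.24, most replication genes lie near 0, and Ccnd1 and Ccnd3 lie below it.

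The D cyclins, which carry growth signals to the kinases CDK4 and CDK6, had the smallest summed CPM fold of the 3 lists, and Ccnd1 and Ccnd3 were nearly level by CPM. Relative to the median gene their list median was farther from 0 than that of the replication genes. Ccnd2 had 143 CPM in the PD1 Het and 176 CPM in the PD1 KO heart and lay at -0.03 (-0.11 to 0.05). Ccnd1 had 70.5 CPM in the PD1 Het and 72.4 CPM in the PD1 KO heart and lay at -0.29 (-0.41 to -0.18). Ccnd3 had 71.6 and 72.6 CPM and lay at -0.31 (-0.43 to -0.19). Ccnd1 and Ccnd3 thus held almost the same CPM in both sections while 82.3% and 83.7% of genes had a larger ratio. Their kinases stood near them, with Cdk4 at -0.15 (-0.26 to -0.05) and Cdk6 at -0.19 (-0.41 to 0.02), and Cdk2, the partner of the E and A cyclins, at 0.08 (-0.11 to 0.28).

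Most replication genes were close to the median gene, and Ccne2, Rrm2 and Tyms lay farthest above it. The 6 subunits of the MCM helicase, which unwinds DNA at the fork, lay between -0.12 for Mcm6 and 0.14 for Mcm7, and the interval of each reached 0. Mcm6 had 41.4 CPM in the PD1 Het and 48 CPM in the PD1 KO heart, and Mcm2 24.3 and 31.9 CPM. Gins2, a subunit of the GINS complex that activates the helicase, lay at 0.04, and Cdc6 and Cdt1, which load the helicase at origins, at 0.16 (-0.36 to 0.70) and 0.31 (0.05 to 0.58). Pcna, the sliding clamp of the polymerases, had 73.9 CPM in the PD1 Het and 110.03 CPM in the PD1 KO heart and lay at 0.24 (0.13 to 0.35).

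The subunits of ribonucleotide reductase, which makes deoxynucleotides, stood apart from each other. Rrm2, the subunit whose protein is made in S phase, had 40.5 CPM in the PD1 Het and 73.7 CPM in the PD1 KO heart and lay at 0.53 (0.39 to 0.68). Rrm1, the subunit that is present through the cycle, had 43.6 and 54.9 CPM and lay at 0.00 (-0.14 to 0.15), so the intervals of the pair did not overlap. Tyms, which makes thymidylate, had 8.74 and 15.3 CPM and lay at 0.48 (0.17 to 0.80). The E cyclins drive entry into S phase: Ccne2 had 58 and 202 UMIs and lay at 0.59 (0.16 to 1.04), just past the 1.5-fold limit, and Ccne1 had 70 and 180 UMIs and lay at 0.16 (-0.25 to 0.57). Ccne2 was under the limit when spots needed at least 5000 UMIs, with 0.58.

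The cyclins and kinase that take the cell into mitosis were higher in the PD1 KO section. Ccna2, the A cyclin of S phase and G2, had 20.0 CPM in the PD1 Het and 48.6 CPM in the PD1 KO heart, was found in 209 and 575 spots and lay at 0.95 (0.75 to 1.15). Ccnb1 and Ccnb2, the B cyclins, had 13.7 and 28 CPM and 13.2 and 25.4 CPM and lay at 0.70 (0.46 to 0.95) and 0.62 (0.37 to 0.87). Their kinase Cdk1 had 24.8 and 47.1 CPM and lay at 0.59 (0.41 to 0.78). All 4 lay past 1.5-fold, Cdk1 and Ccnb2 close to the limit. In spots with 10000 to 25000 UMIs Cdk1 lay at 0.39 and Ccnb2 at 0.47, and in spots with 15% to 25% mitochondrial UMIs at 0.23 and 0.45, so neither passed the limit there.

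Genes of the spindle and of the division of the cell body held the 3 highest ratios of the 41 genes. Prc1, which bundles the microtubules of the central spindle, had 12 CPM in the PD1 Het and 35.7 CPM in the PD1 KO heart and lay at 1.24 (0.99 to 1.5). That is 2.97-fold by CPM, and 0.498% of all genes had a larger ratio. Kif20a, a kinesin of the central spindle that is needed for cytokinesis, had 8.43 and 21.1 CPM and lay at 0.99 (0.69 to 1.31). Nusap1, which stabilises spindle microtubules, had 70 and 324 UMIs and lay at 1.0 (0.63 to 1.4). Kif11, the kinesin that pushes the spindle poles apart, had 6.4 and 14 CPM and lay at 0.80 (0.44 to 1.16). The group was not uniform. Kif23, which also acts at the central spindle, lay at 0.47 (0.18 to 0.78). Tpx2, which nucleates spindle microtubules, lay at 0.55 (0.27 to 0.85), and Hmmr, a spindle protein, at 0.27 (-0.01 to 0.55). Aurka, the kinase of the spindle poles, had 8.82 and 16.2 CPM and lay at 0.55 (0.24 to 0.86). Aurkb and Birc5 are partners in the chromosomal passenger complex; Aurkb lay at 0.46 (0.11 to 0.82) and Birc5, with 25.1 and 49.96 CPM, at 0.66 (0.48 to 0.84).

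Among genes of the kinetochore and its checkpoint, Bub1b, the checkpoint protein BubR1, had 6.16 and 13.8 CPM and lay at 0.83 (0.47 to 1.21). Bub1 had 54 and 180 UMIs and lay at 0.53 (0.08 to 1.0), and Cenpf, a large kinetochore protein, at 0.45 (0.19 to 0.72). Cenpe, the kinesin that aligns chromosomes, lay at 0.02 (-0.35 to 0.40). The genes that end mitosis were both higher: Cdc20, which activates the anaphase-promoting complex, had 14.8 and 28.6 CPM and lay at 0.62 (0.38 to 0.86), and Ube2c, its ubiquitin-conjugating enzyme, had 37.3 and 67.1 CPM and lay at 0.52 (0.37 to 0.67). Plk1, the kinase that acts from entry to exit, lay at 0.37 (0.05 to 0.71). Top2a, the topoisomerase that untangles sister chromatids, had 21.1 CPM in the PD1 Het and 44.6 CPM in the PD1 KO heart and lay at 0.74 (0.55 to 0.94). Mki67, the proliferation marker Ki-67, lay with Cenpe at the low end of the list, with 41.7 CPM in the PD1 Het and 52.3 CPM in the PD1 KO heart and a ratio of 0.00 (-0.15 to 0.15). Its interval did not overlap that of Top2a.

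Because both sums came from the same spots, the ratio of mitosis to replication UMIs does not depend on how the sections were scaled. It was 0.916 (0.879 to 0.956) in the PD1 Het section and 1.22 (1.2 to 1.25) in the PD1 KO section, a 1.34 (1.27 to 1.4)-fold difference. Mitosis over D cyclins differed 1.68 (1.59 to 1.77)-fold, and replication over D cyclins 1.26 (1.19 to 1.32)-fold. In the PD1 Het section the replication UMIs thus outnumbered the mitosis UMIs, and in the PD1 KO section the order was turned. Leaving out in each section the spot with the most UMIs of each list gave a log2 ratio of 0.42 for mitosis over replication, the value of all spots to 2 decimals.

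Depth and the mitochondrial share differed between the sections as well, so the sums were repeated on spots within a common range, which was decided once values had been seen. Among spots with 10000 to 25000 UMIs, of which there were 731 and 293, mitosis genes made up 331 CPM of the PD1 Het spots and 614 CPM of the PD1 KO spots. Replication genes made up 364 and 505 CPM there. Among spots with 15% to 25% mitochondrial UMIs, 318 and 325 of them, mitosis genes made up 361 and 550.1 CPM and replication genes 392.3 and 467 CPM. The mitosis list had the larger difference in both sets of spots. The sets did not make the sections alike: the first had medians of 15612 and 21833 UMIs and mitochondrial shares of 25.6% and 12.5%, and the second medians of 14479 and 28118 UMIs. In the first set 8 mitosis genes exceeded the median gene by 1.5-fold or more, against 12 in all spots. Those no longer past it were Ccnb2, Cdk1, Cdc20 at 0.35 and Top2a at 0.58. In the second set 11 did, without Ccnb2, Cdk1, Cdc20 at 0.53 and Birc5 at 0.51, and with Aurkb, Tpx2 and Hmmr. Over all spots 5.5% of all genes lay as far above. The share of all genes within each set was not counted, so the counts of 8 and 11 have no like share beside them. Scar matrix genes differed between the sections too, with 6827 and 9703 CPM over 18 genes, none at 0 and 5 of 18 at least 1.5-fold above the median gene. The 9 macrophage markers had 283 and 369 CPM, none at 0, 0 of the 8 with at least 100 UMIs above, and a median of 0.00. Their part in the cell cycle sums was not tested.

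Further genes of each stage, counted in the same 2 libraries, showed the same order between the sections. Their lists were also chosen with earlier results of these data known. Of 40 other mitosis genes, all with at least 100 UMIs, 16 exceeded the median gene by 1.5-fold or more and 0 fell short of it by as much, with a median of 0.50. Of 34 other replication genes, 32 had enough UMIs, 3 lay above and 0 below, with a median of 0.11. Both are to be read against 5.5% and 3.3% of all genes. Hmgb2, a chromatin protein of dividing cells, lay at 0.65 (0.53 to 0.77), the cohesin protector Sgo2a at 1.21 (0.75 to 1.69) and the kinetochore scaffold Knl1 at 1.46 (0.66 to 2.35) on 15 and 95 UMIs. Tubb4b, a tubulin that non-dividing cells also make, lay at -0.43 (-0.50 to -0.36) and was the gene of that list with the most UMIs. Among the other replication genes, Gins3, which belongs to the complex of Gins2, lay at 1.17 (0.49 to 1.92) on 21 and 109 UMIs and Hells, a chromatin remodeler, at 0.85 (0.31 to 1.43), while Dut, which removes dUTP, lay at 0.01 (-0.14 to 0.16) and Rfc2, a subunit of the clamp loader, at -0.32 (-0.47 to -0.16).

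Genes that hold the cycle back and the transcription factors of the cycle were counted in the same way, again beside 5.5% of all genes above and 3.3% below. Of 10 CDK inhibitors and pocket proteins, 8 had enough UMIs, 2 exceeded the median gene by 1.5-fold or more and 0 fell short of it by as much. Cdkn1b, the inhibitor p27, had 21.9 and 46.2 CPM and lay at 0.74 (0.55 to 0.94). Rbl1, the pocket protein p107, which is itself an E2F target, lay at 0.92 (0.53 to 1.33), and Cdkn2d, the inhibitor p19, at -0.02 (-0.18 to 0.13). Of 9 p53 target and arrest genes, 0 lay above and 0 below, with Ccng1 at -0.03 (-0.10 to 0.03), Plk2 at 0.37 (0.24 to 0.50), Btg2 at 0.45 (0.27 to 0.64) and Plk3 at 0.58 (0.01 to 1.17). Of 14 E2F and cell cycle transcription factors, 1 lay above and 0 below. The one above was Myc, at 0.99 (0.37 to 1.66) on 26 and 119 UMIs. Tfdp1, the partner of the E2F proteins, lay at 0.34 (0.15 to 0.53), E2f6 at 0.15 (-0.03 to 0.34) and E2f7 at 0.55 (-0.03 to 1.16). Chosen after its value was seen, E2f1 lay at -0.42 (-0.66 to -0.18), with 17.9 and 16.8 CPM, and Foxm1, the activator of mitosis genes, at 0.18 (-0.17 to 0.54).

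The promoters of both stages were searched for the sites known to time them, and 6 are printed to show how the layouts differ. RefSeq promoter windows (GRCm38.p6), which run from 250 bases upstream to 50 bases downstream of a transcript start, matched 12 of 15 replication genes, 19 of 23 mitosis genes and 1 D cyclin, Ccnd3. Genes with no entry were Mcm4, Gins2, Ccne2, Ccna2, Aurkb, Kif20a, Tpx2, Ccnd1 and Ccnd2. Each line below gives the 160 bases before the start, 5′ to 3′, in the direction of the gene. Capitals mark E2F sites in Mcm6 and Mcm5, CHR elements and CCAAT boxes in Top2a, Cdc20 and Kif11, and all 3 motifs in Cdk1. The Mcm6 and Mcm5 stretches hold CCAAT boxes too, which are left in lower case. They start 57 and 14 bases upstream in Mcm6, and 77 and 22 bases upstream in Mcm5. A motif on the other strand appears as its reverse complement.
Mcm6: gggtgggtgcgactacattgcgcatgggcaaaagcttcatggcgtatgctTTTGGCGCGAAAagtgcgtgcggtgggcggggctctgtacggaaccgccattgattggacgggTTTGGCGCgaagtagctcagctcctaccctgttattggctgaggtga
Mcm5: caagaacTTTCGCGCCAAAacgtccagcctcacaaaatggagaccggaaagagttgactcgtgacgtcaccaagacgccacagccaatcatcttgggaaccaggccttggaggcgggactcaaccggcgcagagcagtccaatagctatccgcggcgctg
Top2a: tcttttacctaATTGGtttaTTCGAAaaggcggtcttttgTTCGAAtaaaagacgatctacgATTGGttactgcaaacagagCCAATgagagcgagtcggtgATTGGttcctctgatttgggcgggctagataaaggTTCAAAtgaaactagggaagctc
Cdc20: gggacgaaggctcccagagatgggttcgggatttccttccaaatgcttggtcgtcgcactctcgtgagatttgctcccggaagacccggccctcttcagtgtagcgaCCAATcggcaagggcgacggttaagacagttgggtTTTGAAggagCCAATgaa
Cdk1: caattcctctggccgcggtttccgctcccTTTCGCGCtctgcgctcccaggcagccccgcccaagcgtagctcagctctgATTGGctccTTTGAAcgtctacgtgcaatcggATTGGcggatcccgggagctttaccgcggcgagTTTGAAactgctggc
Kif11: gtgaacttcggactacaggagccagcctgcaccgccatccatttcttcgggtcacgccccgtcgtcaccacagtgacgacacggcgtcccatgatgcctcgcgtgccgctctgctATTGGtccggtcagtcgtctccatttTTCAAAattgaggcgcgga

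The stretches lie at chr1:128359706-128359865 on the minus strand (Mcm6), chr8:75109349-75109508 on the plus strand (Mcm5), chr11:99024190-99024349 on the minus strand (Top2a), chr4:118437344-118437503 on the minus strand (Cdc20), chr10:69352913-69353072 on the minus strand (Cdk1) and chr19:37376222-37376381 on the plus strand (Kif11). In GENCODE vM21 the last 9 bases of the Cdc20 stretch and the last 26 of the Cdk1 stretch fall in the gene's own first exon, and the other 4 overlap no annotated gene. An E2F site (TTTGGCGC, TTTCGCGC, TTTGGCGG, TTTCCCGC or TTTCGCGG, either strand, overlapping matches of a gene counted once) was found in 6 of 12 replication genes, Mcm3, Mcm5, Mcm6, Mcm7, Cdc6 and Cdt1, and in 1 of 19 mitosis genes, Cdk1, against 2.97% of the 27025 genes in the table. The CHR element, which the MuvB complex binds (TTTGAA or TTCGAA, either strand), was found in 15 of 19 mitosis genes and 2 of 12 replication genes, Mcm2 and Mcm7, against 21.7%. A CCAAT box (CCAAT, either strand), bound by NF-Y, was in 17 of 19 and 8 of 12, against 41.1%. All 15 mitosis genes with a CHR element also held a CCAAT box. Within 50 bases of the start on either side, a limit chosen after the positions were seen, 14 of 19 mitosis genes and 0 of 12 replication genes held a CHR element, against 6.12%. A match describes letters in these windows, not binding, and nothing was measured here at the promoters themselves.

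**Figure D2:**
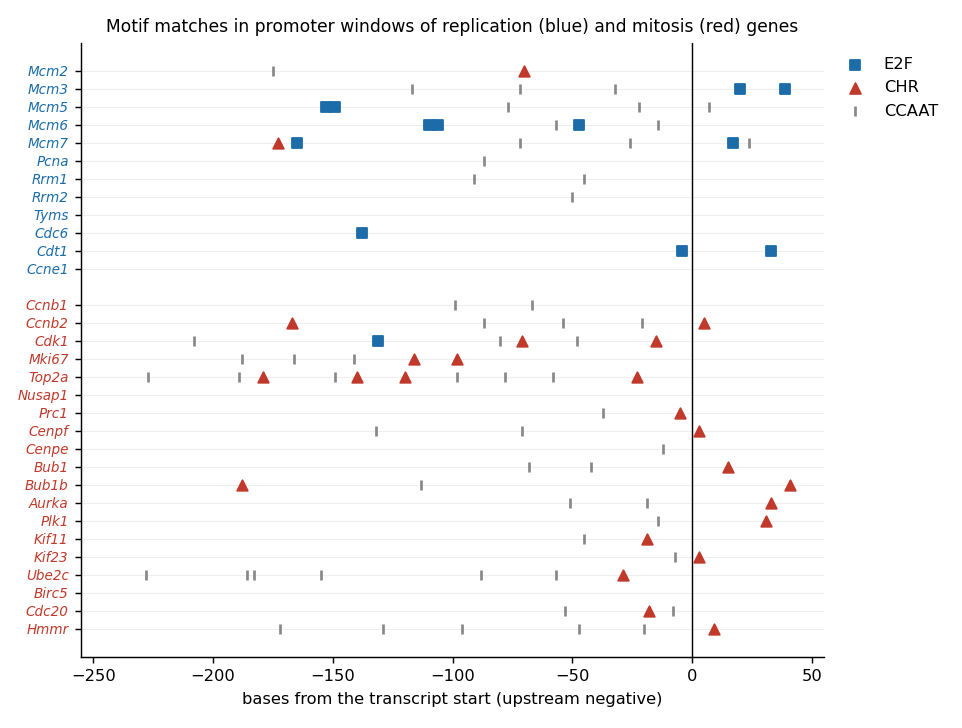
Position of E2F, CHR and CCAAT matches in the promoter window of each replication gene (blue names) and mitosis gene (red names) with an entry, in bases from the transcript start; genes with more than 1 window show the one with the most matches. CHR matches of mitosis genes lie within 50 bases of the start in 14 of 19 genes.

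Spots were next compared by what they held besides cell cycle genes. In each section, matrix-rich spots were the 20% with the highest share of UMIs from 18 scar matrix genes, and cardiomyocyte-rich spots the 20% with the highest share from 12 ventricular cardiomyocyte genes; neither list holds a cell cycle gene. This gave 161 matrix-rich and 161 cardiomyocyte-rich spots in the PD1 Het section, after 1 spot in both classes was left out, and 170 of each in the PD1 KO section. The classes differ in degree: in PD1 Het and PD1 KO, cardiomyocyte genes made up 68851 and 62622 CPM of matrix-rich spots, against 96212 and 92143 CPM of cardiomyocyte-rich spots, so matrix-rich spots still held much muscle. The 9 macrophage markers made up 544 and 925 CPM of matrix-rich and 232 and 254 CPM of cardiomyocyte-rich spots, and the 7 fibroblast markers 3241 and 3212 against 1385 and 1405 CPM. Their part in the values below was not tested.

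In the PD1 Het section, mitosis genes made up 352 CPM of matrix-rich and 322 CPM of cardiomyocyte-rich spots, a log2 CPM ratio of 0.13 (-0.02 to 0.27). In the PD1 KO section the values were 655 and 601 CPM, a log2 CPM ratio of 0.12 (0.05 to 0.20). Replication genes leaned the other way, with 356 and 394 CPM and a ratio of -0.14 (-0.28 to -0.0035) in the PD1 Het section, and 497 and 516 CPM and -0.05 (-0.14 to 0.03) in the PD1 KO section. D cyclins lay at 0.18 (0.03 to 0.33) and 0.04 (-0.07 to 0.14). With mitochondrial genes left out of shares and totals, replication genes lay at 0.00 and 0.12 and mitosis genes at 0.30 and 0.29. The replication genes thus became level in the PD1 Het section with that choice. In the PD1 KO section, where the first interval included 0, their sign changed. With classes of 10% of spots the mitosis genes lay at 0.21 and 0.37. With classes of 20%, mitosis genes lay above replication genes in both sections, with and without mitochondrial genes. The other mitosis and replication genes did not keep this order in the PD1 Het section. There they lay at -0.05 (-0.15 to 0.05) and 0.03 (-0.09 to 0.16), with intervals that overlap. In the PD1 KO section they lay at 0.05 (-0.01 to 0.10) and -0.09 (-0.17 to -0.01). The median gene lay at a log2 CPM ratio of 0.09 in PD1 Het and 0.09 in PD1 KO. Relative to it, the summed mitosis genes lay at 0.03 (-0.11 to 0.18) and 0.03 (-0.05 to 0.11), about level with the median gene. The summed replication genes lay at -0.24 (-0.38 to -0.10) and -0.15 (-0.23 to -0.06), below it in both sections. The summed D cyclins lay at 0.09 (-0.06 to 0.24) and -0.06 (-0.16 to 0.05). On this scale no member was 1.5-fold higher in matrix-rich spots, where 10.1% and 10.2% of genes were. Gins2 in the PD1 KO section was the 1 member 1.5-fold lower, where 4.74% and 6.37% of genes were. These counts cover the 15 and 36 members with at least 100 UMIs in both classes together, which is not all members.

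Single genes varied around the sums. In the PD1 KO section, where counts were higher, the log2 CPM ratio of matrix-rich over cardiomyocyte-rich spots was 0.38 (0.11 to 0.65) for Birc5, 0.38 (0.01 to 0.76) for Cdc20, 0.22 (-0.03 to 0.46) for Ube2c and 0.12 (-0.15 to 0.39) for Mki67. Top2a lay at -0.03 (-0.33 to 0.27) and Cdk1 at 0.00 (-0.29 to 0.29). Gins2 had 9.14 CPM in matrix-rich and 15.7 CPM in cardiomyocyte-rich spots, a ratio of -0.78 (-1.41 to -0.18), and Cdt1, which acts at the same origins, lay at -0.32 (-0.78 to 0.13). Tyms went the other way, at 0.49 (0.03 to 0.95). Of the 15 replication genes, 5 had a higher CPM in matrix-rich spots of this section. In the PD1 Het section Gins2 lay at -0.22 (-1.13 to 0.66), on 21 and 26 UMIs. Among the D cyclins, Ccnd3 was higher in matrix-rich spots of both sections, at 0.48 (0.18 to 0.78) in PD1 Het and 0.25 (0.01 to 0.48) in PD1 KO, and Ccnd1 was lower at -0.15 (-0.47 to 0.16) and -0.27 (-0.51 to -0.04). Ccnd2 lay at 0.19 (-0.03 to 0.41) and 0.07 (-0.07 to 0.22).

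Across 5 equal bins of spots by matrix share the lists stayed within narrow bands. From the lowest to the highest bin, mitosis genes in the PD1 Het section made up 338, 307, 329, 320.2 and 351 CPM, and in the PD1 KO section 581, 624, 643, 613 and 655 CPM. Every bin of the PD1 KO section thus lay above every bin of the PD1 Het section. Replication genes made up 346 to 366 CPM in the PD1 Het bins and 477 to 536 CPM in the PD1 KO bins. D cyclins ran from 258 in the lowest to 337 CPM in the highest PD1 Het bin, while the PD1 KO bins ran from 303 to 347, so the sections overlapped for this list. The matrix share itself ran from 0.329% to 1.54% and from 0.455% to 2.43%, and the mitochondrial share ran along it from 29.7% to 18.6% and from 18.8% to 11.7%.

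**Figure D3:**
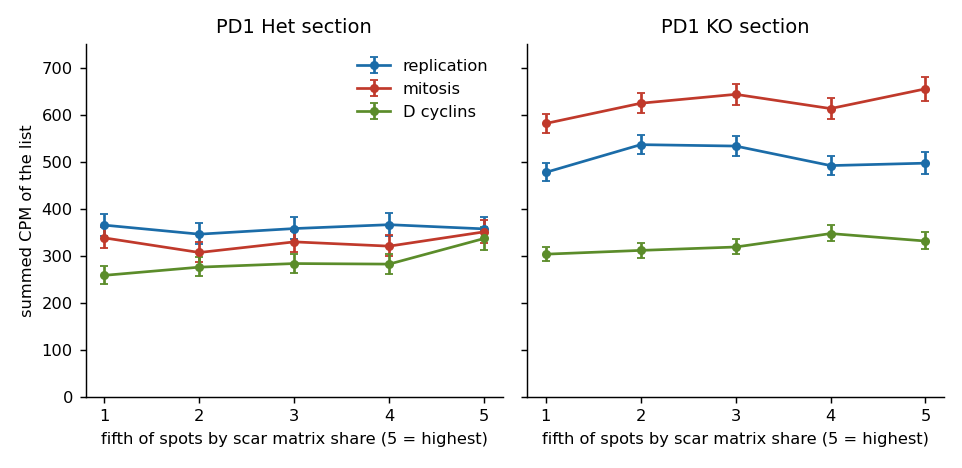
Summed CPM of each list in 5 equal bins of the spots of each section, ranked by scar matrix share, with exact 95% Poisson intervals. Mitosis genes lie below replication genes in every PD1 Het bin and above them in every PD1 KO bin, and neither list runs in order along the matrix share.

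The difference between the sections was seen in both spot classes. In matrix-rich spots the log2 CPM ratio of PD1 KO over PD1 Het was 0.90 (0.78 to 1.01) for mitosis genes, 0.48 (0.36 to 0.60) for replication genes and -0.03 (-0.16 to 0.11) for D cyclins. In cardiomyocyte-rich spots it was 0.90 (0.78 to 1.02), 0.39 (0.28 to 0.50) and 0.12 (-0.01 to 0.25). The mitosis sums of both classes had nearly the same ratio, and the order of the stages was that of the whole sections. Mitosis over replication was 0.987 (0.893 to 1.09) in the PD1 Het section and 1.32 (1.24 to 1.4) in the PD1 KO section for matrix-rich spots and 0.819 (0.742 to 0.903) in the PD1 Het section and 1.17 (1.1 to 1.23) in the PD1 KO section for cardiomyocyte-rich spots. That is a 1.34 (1.19 to 1.5)-fold and a 1.42 (1.27 to 1.59)-fold difference. Of all 23 mitosis genes, 21 in matrix-rich and 21 in cardiomyocyte-rich spots had a ratio above the median gene of the class, of 15 replication genes 11 and 9, and of 3 D cyclins 0 and 1, where 50% of genes do so by construction. By CPM, 22 and 22 of the 23 mitosis genes were higher in PD1 KO spots, as were 73.4% and 76.8% of all genes.

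Prc1 again had the highest ratio of any member in both classes, with log2 CPM ratios of 1.52 (0.94 to 2.15) in matrix-rich and 1.66 (1.05 to 2.33) in cardiomyocyte-rich spots. Its level was 13.2 CPM in PD1 Het and 37.9 CPM in PD1 KO matrix-rich spots, and 10.7 and 34 CPM in cardiomyocyte-rich spots. Ccna2 lay at 1.24 (0.78 to 1.72) and 1.51 (1.01 to 2.05), and Kif20a at 1.21 (0.53 to 1.96) and 1.41 (0.69 to 2.2). Cenpe was the mitosis gene lower in PD1 KO spots of both classes, at -0.26 (-1.05 to 0.55) and -0.18 (-1.03 to 0.72), on 24 and 35 UMIs in matrix-rich spots, and both intervals include 0. Rrm2 lay at 1.12 (0.73 to 1.52) and 0.83 (0.51 to 1.17), above the other abundant replication genes Pcna, at 0.68 (0.41 to 0.95) and 0.55 (0.30 to 0.80), and Mcm6, at 0.25 (-0.12 to 0.62) and 0.05 (-0.29 to 0.40). Cdc6 lay at -0.22 (-1.63 to 1.28) and 1.25 (-0.17 to 2.99), with intervals that overlap widely, so a difference between the classes was not detectable at this depth.

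**Figure D4:**
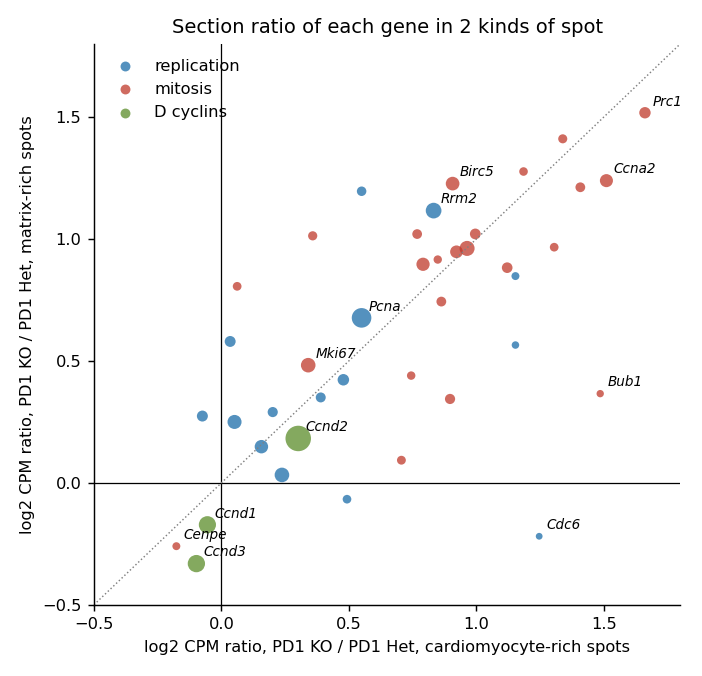
Log2 CPM ratio of PD1 KO over PD1 Het for each gene in cardiomyocyte-rich spots (horizontal axis) and matrix-rich spots (vertical axis); point area grows with the UMIs of the gene in both classes, and the dotted line marks equal ratios. Most mitosis genes lie above 0 on both axes with Prc1 farthest out, and the D cyclins lie near 0.

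To compare spots across depths, each spot was thinned to 10000 UMIs, which left out 52 shallower PD1 Het spots and 12 PD1 KO spots. A mitosis UMI was present in 90.5% (88.2 to 92.5) of spots in PD1 Het and in 97.5% (96.2 to 98.4) in PD1 KO, against 96.1% (94.5 to 97.3) and 99.9% (99.3 to 100) without thinning. A replication UMI was present in 94.6% (92.7 to 96.1) and 98.1% (96.9 to 98.9), and a D cyclin UMI in 93.4% (91.4 to 95.1) and 95.6% (94 to 96.9). Spots with a replication UMI and no mitosis UMI made up 8.17% (6.32 to 10.3) and 2.5% (1.56 to 3.8), and spots with a mitosis UMI and no replication UMI 4.08% (2.79 to 5.75) and 1.91% (1.09 to 3.08). Transcripts of both stages were thus found in most spots of both sections, and the sections differed in number per spot. A thinned spot held 3.37 mitosis UMIs on average in PD1 Het and 6.38 in PD1 KO, 3.58 and 5.08 replication UMIs, and 2.92 and 3.18 D cyclin UMIs.

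The stages also differed in how evenly their UMIs were spread. Mitosis UMIs per thinned spot ran from 0 to 20 with a median of 3 in the PD1 Het section, and from 0 to 25 with a median of 6 in the PD1 KO section. Their variance was 2.25 and 3.01 times the mean, where counting error alone gives 1. For replication UMIs it was 1.48 and 1.47 times the mean, and for D cyclin UMIs 1.15 and 1.02. The mean of the mitosis list was below that of the replication list in the PD1 Het section and above it in the PD1 KO section. The cause of the wider spread was not tested. The 5% of thinned spots with the most mitosis UMIs held 16.8% and 14% of them. Over spots, mitosis and replication UMIs had a Pearson correlation of 0.24 in 759 PD1 Het spots and 0.25 in 839 PD1 KO spots, given as a description of sparse counts from 1 library each, and mitosis and D cyclin UMIs 0.08 and 0.03.

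**Figure D5:**
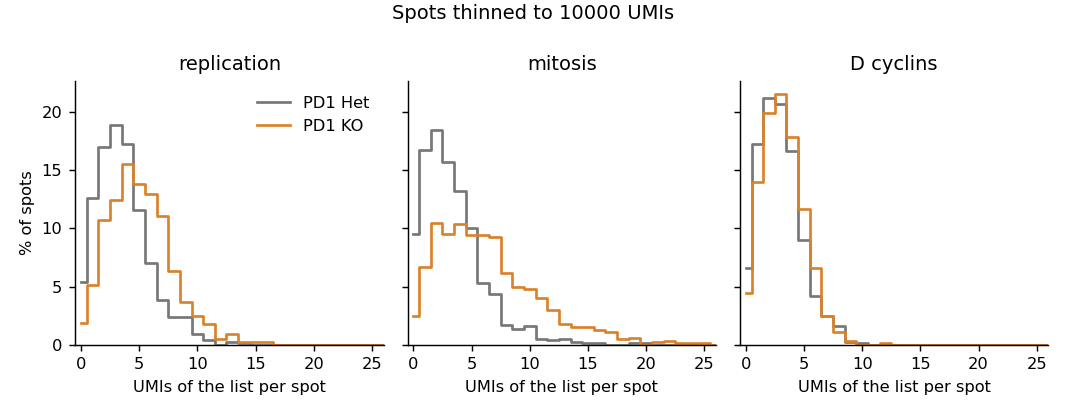
Share of spots (vertical axis, %) by the number of UMIs of each list per spot after thinning to 10000 UMIs, for 759 PD1 Het (grey) and 839 PD1 KO (orange) spots. The PD1 KO distribution of mitosis UMIs is shifted to the right and reaches 25 UMIs in a spot, and those of the D cyclins nearly coincide.

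For 4 members the last 400 bases of their transcripts, where the assay reads, share many 31-base words with another annotated transcript: Mcm7 (44.2% of words, most with Gm5487), Ccnb1 (38.2%, Ccnb1-ps), Pcna (29.9%, Pcna-ps2) and Cdc20 (28.8%, Gm7856). Their levels are less certain than those of the other 37, which shared less than 20% each. Rrm2 was just under that, with 19.8%, most with Gm48445, so its level carries a like doubt.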

How the data were processed

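Gene expression was measured in 1 PD1 Het and 1 PD1 KO heart section by Visium. The authors deposited unnormalized UMI counts for each gene in each spot. They were written by Space Ranger 1.1.0, per the file headers, and the submitters' processing notes name the builds mm10 and GRCm38; the annotation release was not given in the sources here. Gene symbols and spot barcodes were taken from the deposited tables, columns of other values than counts, listed as other; 225 barcodes occur in both sections, and spot positions were not used here. The barcodes name array positions.

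UMIs of spots with at least 500 UMIs were summed per section or spot class and divided by the total of gene UMIs to give CPM, with Python 3.11.15, numpy 2.4.6 and scipy 1.17.1. Intervals are 95% exact Poisson intervals for sums, Clopper-Pearson intervals for shares and exact conditional intervals for ratios; a count of 0 allows 3 counts. The 1.5-fold limit applies to genes with at least 100 UMIs in both groups together. Ratio code was tested on simulated data. All members are named, and of each other list the 2 genes with the most UMIs and the 2 farthest from the median gene in either direction; E2f1 and Foxm1 were added after their values were seen. The members and lists were chosen with earlier results of these data known. As alternatives, sections were scaled with TMM factors (edgeR 4.0.16) or by the median of ratios, and totals without mitochondrial genes, other spot and gene minimums, other spot classes and other thinning depths were tried. Gene coordinates are from GENCODE vM21 and promoter sequences from RefSeq.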

Additional observations from a re-analysis of the deposited data

How the results depend on the processing

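The summed log2 CPM ratio between sections was 0.92 for mitosis genes, 0.50 for replication genes and 0.17 for D cyclins. In the same order it was 0.61, 0.19 and -0.14 with TMM factors, 0.61, 0.19 and -0.14 with median-of-ratios factors, 0.74, 0.32 and -0.00692 without mitochondrial genes, and 0.61, 0.25 and 0.0583 in spots with 15% to 25% mitochondrial UMIs. The sign of the D cyclins turned with scaling. TMM factors, median-of-ratios factors and totals without mitochondrial genes each shift all lists by the same amount. The order of the lists could therefore not change with them, and its being the same there is no evidence that it is stable. In spots with 15% to 25% mitochondrial UMIs, where the order could change, it was the same. List medians relative to the median gene moved in spots with 10000 to 25000 UMIs, to 0.49 for mitosis, -0.000388 for replication and -0.38 for D cyclins, and the D cyclin median to -0.12 in spots with 15% to 25% mitochondrial UMIs. The 1 replication gene past 1.5-fold became 0 with genes of like totals, with at least 5000 UMIs per spot and in both ranges of spots just named; the cause was not tested. Without mitochondrial genes, matrix-rich over cardiomyocyte-rich spots gave 0.00442 and 0.12 for replication and 0.30 and 0.29 for mitosis genes in PD1 Het and PD1 KO, and PD1 KO over PD1 Het gave 0.26 for replication genes in cardiomyocyte-rich spots and 0.75 and 0.76 for mitosis genes in matrix-rich and cardiomyocyte-rich spots. With classes of 10% of spots, mitosis genes lay at 0.37 in matrix-rich over cardiomyocyte-rich PD1 KO spots. With classes wider than 20%, D cyclins lay at 0.11 between sections in matrix-rich spots. Thinning to 5000 UMIs gave shares of spots with a replication, mitosis or D cyclin UMI of 80.9%, 76.6% and 75% in PD1 Het and 89.4%, 88.1% and 81.2% in PD1 KO; thinning without mitochondrial genes gave 98.3%, 94.9% and 97.3%, and 99.2%, 98.9% and 97%. Mitosis genes past 1.5-fold numbered 12, and 8 and 11 in the ranges by depth and by mitochondrial share. Over all spots 5.5% of all genes lay as far above, and their share in those ranges was not counted. Over 7 settings for single genes, Ccne2 was past 1.5-fold in 4, Ccnb2, Cdk1 and Cdc20 in 5, Top2a and Birc5 in 6 and the other 7 called members in all. In these settings no member past 1.5-fold changed sign, and 22 genes stayed within their counting interval in each. The TMM and median-of-ratios settings shift all genes alike, so they could not change a value relative to the median gene. Leaving out mitochondrial genes could hardly do so. These settings are therefore no evidence that a call is stable. No paired analysis was possible because each genotype has 1 section, and for the same reason none could be left out. Counting error limits genes with few UMIs such as Cdc6 and Bub1.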

Other observations

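Spots were also ranked by other cell markers, a choice made after the values above were seen. From the lowest to the highest bin by the share of 8 endothelial markers, replication genes made up 347, 338, 325, 383 and 401 CPM in the PD1 Het section and 466, 508, 501, 506 and 554 CPM in the PD1 KO section, highest in the top bin of both. Mitosis genes made up 308, 287, 337, 342 and 369.6 CPM in the PD1 Het bins, and 629.7, 564, 643, 636 and 632 CPM in the PD1 KO bins. They were lowest in bin 2 of both sections. By the share of 7 fibroblast markers, mitosis genes made up 273, 309.7, 383, 356 and 329 CPM in the PD1 Het bins and 573, 578, 664, 652 and 652 CPM in the PD1 KO bins, lowest in the lowest bin and highest in the middle bin of both. The mitochondrial share ran along the same order from 31.8% to 16.7% and from 20.6% to 10.6%, and its part was not tested. By the share of 9 macrophage markers, mitosis genes made up 661 CPM in the lowest and 578 CPM in the highest PD1 KO bin, and 334 and 332 CPM in the PD1 Het section.

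The same motifs were also looked up outside the cell cycle lists, again after the values above were seen. Among genes with at least 100 UMIs that are in none of the replication and mitosis lists, the 354 with a CHR element within 50 bases of the start had a median log2 ratio of 0.06 relative to the median gene, with 6.78% at least 1.5-fold above it. The 518 with an E2F site had a median of 0.02 and 4.83%. All 8993 such genes with a window had a median of 0.00 and 5.16%.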
